A study of Mus musculus with 84 samples.

Results

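Nuclear RNA of frontal cortex neurons was compared between mice sampled 48 h after a single injection of DOI and mice injected with vehicle, to ask which transcripts and which classes of genes differ at that time. DOI (2,5-dimethoxy-4-iodoamphetamine) is a substituted amphetamine of the psychedelic class that activates serotonin 2A receptors. The comparison was set by the sample labels and not by any measured value: it takes the 8 RNA libraries labelled 48 h and the 8 labelled vehicle, which are 16 of the 84 samples of the series and come from 8 of its 16 RNA mice, 4 on each side. All were 129S6/SvEvTac mice aged 12 weeks, with no transgene or deletion named, and the labels tie no other agent to either group. Nuclei were stained for NeuN, a protein of neuronal nuclei, and the positive fraction was sorted, so each sample mixes many kinds of neuron. Every mouse had 2 libraries made with SMART-seq2 cDNA and the Nextera XT kit, and their counts were summed so that the mouse was the replicate. The mice of 24 h after DOI were used for a side-by-side comparison at the end.

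The serotonin 2A receptor couples to Gq, which activates phospholipase C, releases calcium from internal stores and turns on protein kinase C, and it also feeds into the MAP kinase cascade. In cortex it is found mainly on dendrites of pyramidal neurons, where it changes glutamate-driven firing, and immediate early genes are the usual first transcriptional readout of its activation. RNA in the nucleus is a mix of new transcripts, spliced transcripts awaiting export and retained noncoding RNA, so nuclear levels follow synthesis and export as well as stability.

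The libraries of the groups differed as a whole. Total counts were 9151680 to 11517452 per vehicle mouse and 5834248 to 7344355 per 48 h mouse, with no overlap. An 18S ribosomal RNA pseudogene feature held 0.0101, 0.00948, 0.00883 and 0.00694% of the counts of the vehicle mice and 1.66, 0.523, 1.49 and 1.3% of those of the 48 h mice. Mitochondrial features held 0.0171, 0.0187, 0.0701 and 0.0530% against 0.110, 0.108, 0.268 and 0.230%. These 3 measures parted the groups (exact permutation test, two-sided, p = 0.0286 each, the smallest that 4 mice against 4 can give, and 0.0371 adjusted over 13 measures). The number of genes detected did not part the groups (exact permutation p = 1.0), although 48 h mouse 1 had 21266 and the other 48 h mice 24894 to 25223. Rbfox3, which encodes NeuN, was present in every mouse, at 46.3, 57.0, 68.1 and 54.4 CPM (counts scaled to a common library total with TMM factors) in vehicle mice and at 83.9, 103, 101 and 109 CPM at 48 h. It rose by 0.82 on the log2 scale (SE 0.20, edgeR adjusted p = 0.00775). Depth and group cannot be told apart in these libraries.

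**Figure D1:**
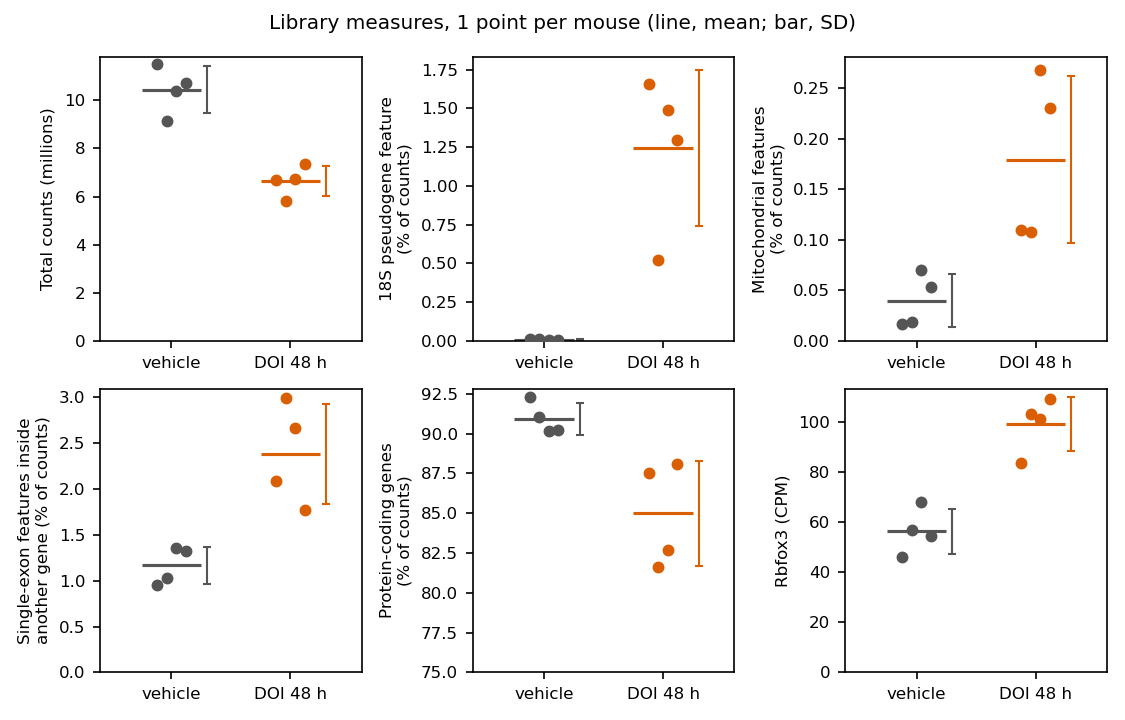
Each panel plots 1 measure of the libraries, with 1 point per mouse, the mean as a line and the SD as a bar, for 4 vehicle and 4 DOI 48 h mice (the axis of the protein-coding share starts at 75%, all others at 0). The 48 h mice lie below the vehicle mice in total counts and above them in the shares of the 18S pseudogene feature (0.523 to 1.66%) and of mitochondrial features (0.108 to 0.268%).

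Differences between the groups ran through most functional classes and in both directions. Of 17941 genes tested, 5395 (30.1%) passed an adjusted p of 0.05 in edgeR's quasi-likelihood test, 3011 (16.8%) higher and 2384 (13.3%) lower at 48 h. The 4 mice of a side did not overlap for 6838 genes (38.1%), and 4967 genes passed both criteria. The median log2 fold change over all genes tested was 0.02, and the median size among called genes was 1.17. These percentages are the background for each list of genes that follows. Each list was written from gene names or known roles, but with earlier results of these data known. The share of calls in a list is therefore not independent of that choice, and no list was tested as a set. When the 18S share was added to the fit as a covariate, 0 genes passed (2819 at an unadjusted p under 0.05), and 98.4% of the called genes kept their sign while the median standard error grew 1.57-fold. With the mitochondrial share 0 genes passed (2720 unadjusted), and 99.6% kept their sign. Over all 16 RNA mice of the series, membership of the 4 groups accounted for 67.9% of the variance of the 18S share. For the mitochondrial share it was 56.9%. Vehicle and 48 h mice did not overlap in either share, so the group and the library measure cannot be told apart for any gene named here. Leaving out vehicle mouse 1 or vehicle mouse 2 lowered the count to 3514 and 3586 genes. Since nuclei were pooled within a sample, a change in the number of cells of a type and a change in RNA per cell cannot be told apart either.

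The protein-coding genes with the largest increases, among genes whose log2 CPM averaged 5 or more and whose groups did not overlap, included enzymes and nuclear regulators. Dagla (chr19:10245265-10304877, GRCm38), which makes the endocannabinoid 2-arachidonoylglycerol, was at 12.7, 11, 13.1 and 10.6 CPM in the vehicle mice and at 213, 169, 229.8 and 231 CPM at 48 h. Every 48 h mouse was far above every vehicle mouse, and the log2 fold change was 4.15 (SE 0.73, edgeR adjusted p = 0.00182). Wtap, a subunit of the RNA m6A methyltransferase complex, rose from 12.6, 14.0, 11.7 and 12.7 CPM to 142, 176, 117 and 132 CPM, without overlap (log2 fold change 3.48, SE 0.52, edgeR adjusted p = 0.00153). Tcf20, a transcriptional coregulator (3.58), Nudt3, an enzyme that hydrolyses diphosphoinositol phosphates (3.51), and Rtl1, an imprinted gene derived from a retrotransposon (4.04), also rose, and all 4 mice of the 48 h group were above all vehicle mice for each. Rtl1 and Tcf20 overlap other annotated genes on both strands, so reads of their neighbours can contribute to the unstranded counts. Of the 150 genes that the naming rule took, 94 overlap another gene on at least 1 strand and are uncertain in this respect. By the same floor and rule, the genes with the smallest p among the increases were Abca2, Arhgef17, Kndc1, Leng8, Ptprs and Nudt3. Ptprs, a receptor phosphatase of synapses and axons, went from a mean of 163 ± 22.5 to 376 ± 48.6 CPM (SD, n = 4 each, log2 fold change 1.20, edgeR adjusted p = 0.00153).

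The protein-coding genes with the largest decreases, by the same floor on level and the same rule on overlap, included secreted, trafficking and RNA-binding proteins. Habp4, an RNA-binding protein, was at 507, 656, 609.7 and 591 CPM in vehicle mice and at 76.2, 83.5, 64.3 and 119.9 CPM at 48 h. The lowest vehicle mouse was more than 4 times the highest 48 h mouse, and the log2 fold change was -2.78 (SE 0.51, edgeR adjusted p = 0.00197). Nell2, a secreted glycoprotein of neurons, fell from 547, 411, 277 and 254 CPM to 46.1, 37.2, 44.5 and 61.6 CPM (-2.98, SE 0.52, edgeR adjusted p = 0.00175), with the vehicle mice spread widely and the 48 h mice close together. Rab5a (chr17:53479234-53507680, GRCm38), the small GTPase of early endosomes, fell from 96.2, 76.1, 86.6 and 89.4 CPM to 19.1, 11.2, 16.2 and 26.2 CPM (-2.26, SE 0.35, edgeR adjusted p = 0.00153). Tm6sf1, a membrane protein (-2.83), Mpnd, a protein with an MPN domain (-2.25), and Htra2, a mitochondrial serine protease (-2.22), completed the 6 largest decreases above that level. Htra2 lost its call without 48 h mouse 1, 2 or 3 (highest edgeR adjusted p 0.0643), while the other 5 kept theirs in each such fit. Acsl3, which activates long-chain fatty acids, Cmas, which activates sialic acid, Gtpbp8 and Zfp866 fell by 1.18, 1.64, 1.40 and 1.65 on the log2 scale and had among the smallest p values of the decreases.

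**Figure D2:**
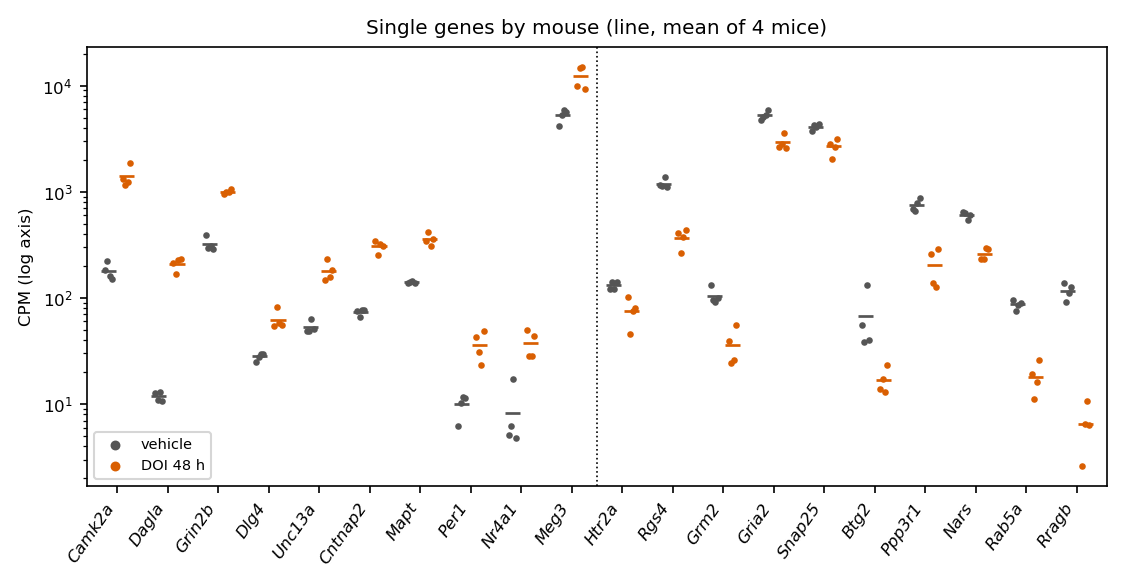
CPM on a log axis for 20 genes, with 1 point per mouse and the mean of 4 mice as a line, vehicle in grey and DOI 48 h in orange. The 10 genes left of the dotted line were called higher and the 10 on the right lower; Camk2a goes from 151 to 222 CPM in vehicle mice to 1167 to 1876 CPM at 48 h.

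Among serotonin receptors the drug's main target was lower and 3 receptors of low level were higher. Htr2a, the serotonin 2A receptor, was at 122, 143, 122 and 141 CPM in vehicle mice and at 102, 46.2, 75.7 and 79.9 CPM at 48 h, without overlap (log2 fold change -0.79, SE 0.24, edgeR adjusted p = 0.0200, but above 0.05 without vehicle mouse 2 and 0.0698 without 48 h mouse 2). Htr2c was at 14.9, 8.19, 13.1 and 13.6 CPM against 13.0, 55.4, 31.3 and 24.9 CPM, so 48 h mouse 1 lay within the vehicle range (1.32, edgeR adjusted p = 0.0355). Htr4 (1.62) and Htr2b (2.40) were also called higher, Htr2b from at most 1.67 CPM to at most 6.66 CPM. With Htr2a, that made 3 higher and 1 lower of 13 tested, of 14 receptor genes in the files. The share called, 30.8%, was near the 30.1% of all genes. The fits without vehicle mouse 2 or 48 h mouse 2 had 2 higher and 0 lower, and that without 48 h mouse 4 had 3 and 2. Htr2b, Htr2c and Htr4, like other called members below that are given with a log2 fold change alone, were named after their values were seen.

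Downstream of Gq, Rgs4 and Rgs7 fell and the diacylglycerol kinase Dgkz rose. Rgs4, which shortens Gq and Gi signals by speeding GTP hydrolysis, was at 1158, 1136, 1372 and 1104 CPM in vehicle mice and at 409, 263, 373 and 433 CPM at 48 h. No 48 h mouse came near the vehicle range (log2 fold change -1.69, SE 0.27, edgeR adjusted p = 0.00158). Rgs7 (-1.41) and the kinase Prkcb (-0.51) were also lower, while Rgs2, the third regulator of G protein signalling in the list, was not called (-0.04, edgeR adjusted p = 0.896). Dgkz, which removes diacylglycerol, was higher at 87.6, 125, 55.9 and 107 CPM against 32.8 to 40.1 CPM (1.38, SE 0.26). Prkce (1.17) and the arrestin Arrb1 (0.46) were called higher as well, which made 3 higher and 3 lower of 19 tested, or 2 and 5 with the length trend removed. Gnaq, the Gq alpha subunit, had a mean of 58.8 ± 13.6 CPM in vehicle mice and 76.2 ± 3.22 CPM at 48 h (edgeR adjusted p = 0.184), and Plcb1, its phospholipase, 366 ± 16.9 and 295 ± 38.1 CPM (edgeR adjusted p = 0.241).

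The MAP kinase cascade had more lower than higher calls. Of 26 tested, 11 were called lower and 4 higher, against 13.3% and 16.8% of all genes, and the median log2 fold change was -0.09. The lower members included the kinases Braf (-0.49), Map2k1 (-0.74), Mapk9 (-0.47) and Mapk14 (-0.97), the ribosomal S6 kinase Rps6ka1, and the phosphatases Dusp1 (-1.58), Dusp6 (-1.07) and Dusp14 (-0.70). Mapk3, which encodes ERK1, averaged 27.5 ± 3.98 CPM and 28.0 ± 16.3 CPM (edgeR adjusted p = 0.964). On the higher side stood Spry2, a feedback inhibitor of receptor tyrosine kinase signalling, at 9.35, 8.41, 12.6 and 12.2 CPM in vehicle mice and 154, 112, 115 and 92.9 CPM at 48 h (3.47, SE 0.59, edgeR adjusted p = 0.00162), with Dusp3 (2.05), Spred2 (1.73) and Hras (1.20). The lower count rested on single mice: it was 4 without 48 h mouse 2 or 48 h mouse 3 5 without vehicle mouse 2, and 6 or 7 without vehicle mouse 1, 3 or 4 or 48 h mouse 1, while each fit with a mouse left out made 4 higher calls.

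Calcium signalling genes were called in both directions. Camk2a (GRCm38 chromosome 18), the alpha subunit of calcium/calmodulin kinase II and a marker of excitatory forebrain neurons, had 185, 222, 162 and 151 CPM in vehicle mice and 1304, 1167, 1239.9 and 1876 CPM at 48 h. Every 48 h mouse was above every vehicle mouse (log2 fold change 2.96, SE 0.56, edgeR adjusted p = 0.00221). Camk2a overlaps another annotated gene on its strand. The beta subunit gene Camk2b had 137 to 197 CPM against 194 to 279 CPM, with 1 vehicle mouse inside the 48 h range (0.57, SE 0.18, edgeR adjusted p = 0.0271), and it lost its call with the length trend removed (0.1004) and without vehicle mouse 2, 3 or 4 or 48 h mouse 2 or 4 (up to 0.084). Camk2g was called at 0.46. Ppp3r1, the regulatory subunit of the phosphatase calcineurin, fell from 685, 656, 778 and 876 CPM to 261, 139, 128 and 292 CPM (-1.87, SE 0.39, edgeR adjusted p = 0.0031), with Calm2 (-0.81) and Camk1 (-0.81). The catalytic subunits of calcineurin, Ppp3ca (0.16) and Ppp3cb (0.41), were not called. Of 17 tested, 3 were higher and 3 lower. The fits without vehicle mouse 2, vehicle mouse 3 or 48 h mouse 2 had 1 higher and 2 lower, those without vehicle mouse 4 or 48 h mouse 4 had 1 and 3, and so did the fit with the length trend removed.

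Genes around the kinase mTOR, which couples amino acid and growth factor signals to protein synthesis, were called in both directions. Rragb, a Rag GTPase, was at 139, 91.5, 110.3 and 126 CPM in vehicle mice and 2.61, 6.53, 10.7 and 6.38 CPM at 48 h (log2 fold change -4.15, SE 0.70, edgeR adjusted p = 0.00162). Rraga (-0.89), the GTPase Rheb (-0.83), which activates mTOR, and Flcn (-0.99), Akt2 (-0.92), Deptor (-0.82), Sesn1 (-0.65), Nprl2 (-0.58) and Rictor (-0.58) were lower too, and the Rag GTPases Rragc (-0.20) and Rragd (0.12) were not called. Higher were Mtor itself, with 81.5 to 90.5 CPM against 91.1 to 158 CPM (0.57, edgeR adjusted p = 0.0176, but above 0.05 without vehicle mouse 2, 0.069 without 48 h mouse 1 and 0.0912 with the length trend removed), and Rptor, its partner in complex 1, with 35.9 to 39.7 CPM against 59.8 to 82.7 CPM (1.02, edgeR adjusted p = 0.00242). Tsc2, the GTPase activator that switches Rheb off, went from 121, 133, 118 and 117 CPM to 352, 325, 273 and 366 CPM (1.43, SE 0.29, edgeR adjusted p = 0.0028). In all 7 of 31 members were higher and 9 lower. Scaled by total counts these were 9 and 6, so the side with more calls depended on the scaling, and 4 lower calls were left without vehicle mouse 2 (4 higher), 48 h mouse 2 (6 higher) or 48 h mouse 3 (6 higher), and 5 without vehicle mouse 1 (6 higher).

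Among receptors for fast transmission, single subunits were called and most were not. The shares called, 29.4% of tested ionotropic glutamate subunits and 28.6% of tested GABA-A subunits, were near the 30.1% of all genes. The NMDA receptor subunit gene Grin2b was at 393, 297, 310.1 and 289.7 CPM in vehicle mice and at 956, 1002, 985 and 1053 CPM at 48 h, with no overlap (1.63 on the log2 scale, SE 0.30, edgeR adjusted p = 0.00209). The AMPA receptor subunit gene Gria2, whose product keeps the channel impermeable to calcium, went the other way, from 4709, 5067, 5322 and 5938 CPM to 2656, 2794, 3602 and 2604 CPM (-0.85, SE 0.20, edgeR adjusted p = 0.00553). Grin2a (0.74) and the kainate receptor subunits Grik3 (1.3) and Grik4 (1.10) were the other calls, which made 4 higher and 1 lower of 17 ionotropic subunits tested (median 0.38, or 0.14 once the trend with gene length was removed). Among metabotropic receptors Grm2, a presynaptic autoreceptor that limits glutamate release, fell from 132, 95.7, 90.9 and 99.3 CPM to 39.1, 24.3, 25.8 and 55.2 CPM (-1.53, SE 0.41, edgeR adjusted p = 0.0117). Grm7 (-1.38) was lower too. Among GABA-A receptor subunits 4 of 14 tested were lower and 0 higher. The lower members included Gabrb2 (-0.91) and Gabra5 (-0.85). The list's lower count was 3 or 4 with each mouse left out.

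Postsynaptic scaffolds and the release machinery both held more higher than lower calls. Of 31 scaffold genes tested 9 were higher and 4 lower (median 0.29), but 6 and 6 with the length trend removed (median 0.16), and 6 and 3 without 48 h mouse 2. Dlg4, which encodes PSD-95, the main scaffold of excitatory synapses, rose from 24.7, 27.9, 29.9 and 29.9 CPM to 54.0, 81.4, 58.0 and 55.8 CPM (1.15, SE 0.28, edgeR adjusted p = 0.00704). Shank3 had 8.2 ± 1.02 and 14.1 ± 3.92 CPM and did not pass (edgeR adjusted p = 0.083), while Shank2 was higher (1.43) and Shank1 lower (-1.32). Pick1, which binds AMPA receptors for internalisation, fell from 65.9 ± 7.22 to 25.9 ± 4.08 CPM (-1.35, edgeR adjusted p = 0.0145).

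Of 46 release genes tested 16 were higher and 7 lower (median 0.36, or 0.21 with the length trend removed). The higher ones included the active zone organisers Unc13a, Bsn (1.74), Rimbp2 (1.69), Erc2 (1.25), Pclo (0.95) and Rims1 (0.70). Unc13a, the vesicle priming factor, went from 49.0, 48.4, 64.0 and 51.5 CPM to 146, 234, 156 and 185 CPM (1.76, SE 0.28, edgeR adjusted p = 0.00155). Its paralogue Unc13c went from 23.3 ± 2.41 down to 7.77 ± 1.81 CPM (-1.58, edgeR adjusted p = 0.00188). The lower ones included core fusion and vesicle proteins. Snap25, a SNARE of the plasma membrane, was at 3717, 4274, 4079 and 4334 CPM against 2812, 2043, 2650.2 and 3169 CPM, without overlap (-0.62, SE 0.20, edgeR adjusted p = 0.0257, and up to 0.0817 without vehicle mouse 2 or 4 or 48 h mouse 2 or 3). Stx1a (-1.15), Syp (-1.17), Rab3a (-1.32), Nsf (-0.86) and Napb (-0.79) were lower with it, and the calcium sensor Syt1 did not pass (987 ± 128 and 1457 ± 333 CPM, edgeR adjusted p = 0.0614). The lower count was 2 to 4 with any mouse but 48 h mouse 4 left out, and without vehicle mouse 1 the list had 12 higher and 3 lower calls.

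Adhesion molecules that join the synaptic membranes had 11 higher and 9 lower calls of 49, and the side with more calls turned when the length trend was removed (10 and 11). Without 48 h mouse 2 the counts were 13 and 5. Cntnap2, a neurexin-like adhesion protein and a very long gene, rose from 74.7, 65.7, 76.1 and 76.8 CPM to 341, 253, 319 and 311 CPM (2.06, SE 0.38, edgeR adjusted p = 0.00194). Nlgn1, a postsynaptic neurexin partner, rose from 108, 75.5, 125 and 146 CPM to 259.7, 269.8, 226 and 246 CPM (1.14, SE 0.30, edgeR adjusted p = 0.00995). Adgrl2, a latrophilin, was the called member that fell furthest (-1.17, edgeR adjusted p = 0.00537). The 3 of 4 Lrrtm genes that were called, all postsynaptic organisers, were lower: Lrrtm1 (-0.91), Lrrtm3 (-0.90) and Lrrtm4 (-0.84). Clustered protocadherins, homophilic surface molecules encoded in tandem arrays of variable exons, had 13 higher and 3 lower of 53 (median -0.04), and 8 and 1 without vehicle mouse 1, 9 and 1 without vehicle mouse 2, 8 and 3 without vehicle mouse 3, 8 and 4 without 48 h mouse 1, and 10 and 1 without 48 h mouse 2. Pcdhb22 rose from 5.25 ± 1.47 to 22.9 ± 10.4 CPM (2.13, edgeR adjusted p = 0.00417) and Pcdhac2 fell from 56.1 ± 14.8 to 22.5 ± 11.1 CPM (-1.31, edgeR adjusted p = 0.0101).

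Among ion channel genes the sodium, calcium and HCN list had more higher than lower calls. The potassium list did so in all but 1 of the fits with a mouse left out. Over all genes tested, higher calls also outnumbered lower ones in each of those fits. Of 40 sodium, calcium and HCN channel genes tested 15 were higher and 3 lower (median 0.29), or 11 and 7 with the length trend removed. Of the higher ones 7 were alpha1 subunits of voltage-gated calcium channels, Cacna1a (0.89), Cacna1b (0.59), Cacna1c (1.15), Cacna1d (1.04), Cacna1e (1.06), Cacna1h (1.07) and Cacna1i (0.83). Scn4b, a sodium channel beta subunit, had 7.36 to 15.6 CPM against 30.4 to 33.5 CPM (1.26, edgeR adjusted p = 0.0241, but 0.0818 without vehicle mouse 1), and Cacnb2, a calcium channel beta subunit, was lower (-0.90, edgeR adjusted p = 0.0147). The fits without vehicle mouse 1 or vehicle mouse 2 had 9 and 10 higher calls and 1 lower call each, and those without 48 h mouse 1 or 48 h mouse 2 had 11 and 1. Potassium channel genes had 16 higher and 9 lower calls of 76 (32.9% called, near the 30.1% of all genes). These were 12 and 12 without 48 h mouse 4, 10 and 9 without vehicle mouse 4, 10 and 5 without vehicle mouse 2, 14 and 5 without 48 h mouse 2, 12 and 5 without 48 h mouse 3, and 13 and 11 with the length trend removed. Kcnj6, which encodes the G protein-gated channel GIRK2, rose from 7.55, 8.87, 5.89 and 5.94 CPM to 51.3, 30.3, 29.3 and 32.8 CPM (2.35, SE 0.37, edgeR adjusted p = 0.00155). Kcnh1, which encodes an ether-a-go-go channel, fell from 109 ± 27.5 to 29.4 ± 3.88 CPM (-1.88, edgeR adjusted p = 0.00194). Axon guidance genes had 14 higher and 5 lower of 62. The lower count was 1 without vehicle mouse 1 (10 higher), 2 without 48 h mouse 2 or 3, and 3 without vehicle mouse 2 or 3 or 48 h mouse 1. Slit3, a secreted repellent, rose from 16.7 ± 0.891 to 69.0 ± 14.0 CPM (2.04, edgeR adjusted p = 0.00207), and Plxna1, a semaphorin receptor, fell from 57.2 ± 17.1 to 24.9 ± 8.63 CPM (-1.20, edgeR adjusted p = 0.0246), a call lost without vehicle mouse 1 or 48 h mouse 1, 2 or 3 (up to 0.0881).

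Genes driven by neuronal activity moved in both directions. Of 20 immediate early transcription factors tested, 2 were higher and 6 lower (median -0.23), and of 31 activity-regulated effectors 5 were higher and 6 lower (median -0.28). Nr4a1, an orphan nuclear receptor, was at 5.10, 6.25, 17.1 and 4.77 CPM in vehicle mice and at 49.5, 28.1, 28.5 and 44.0 CPM at 48 h (2.17, SE 0.51, edgeR adjusted p = 0.00583), and Nr4a3 was called with it (1.62). Btg2, an antiproliferative coregulator, was at 55.6, 38.7, 133 and 40.6 CPM against 13.8, 17.1, 13.0 and 23.5 CPM (-1.99, SE 0.44, edgeR adjusted p = 0.00436). Vehicle mouse 3 was the highest vehicle mouse for Nr4a1 and Btg2, and the same mouse stood far above its group for Fos and Arc. Fos was at 4.25, 15.6, 83.4 and 3.31 CPM against 5.50, 4.52, 8.15 and 10.2 CPM, with overlap and no call (edgeR adjusted p = 0.0801). Arc, a plasticity gene of dendrites, was at 28.2, 43.2, 290.0 and 37.2 CPM against 15.4, 14.1, 20.3 and 41.6 CPM and was called lower (-2.12, SE 0.68, edgeR adjusted p = 0.027), but the groups overlapped and the adjusted p was 0.353 without vehicle mouse 3 and lay above 0.05 without 48 h mouse 1, 2 or 3 as well. Bdnf, a neurotrophin, averaged 48.3 ± 24.0 and 38.6 ± 8.58 CPM (edgeR adjusted p = 0.507). The effectors had 3 higher calls without vehicle mouse 1 or 2 or 48 h mouse 2 or 3. With the early factors, the fits without vehicle mouse 3 or 48 h mouse 1 had 3 lower and 3 higher calls, and those without vehicle mouse 1, vehicle mouse 2, 48 h mouse 3 or 48 h mouse 4 had 3 lower and 2 higher.

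The clock repressors Per1, Per3 and Nr1d1 rose, while Per2, Cry1 and Cry2 of the same negative limb were not called (edgeR adjusted p 0.372, 0.561 and 0.0721). Per1 was at 6.23, 10.3, 11.8 and 11.5 CPM in vehicle mice and at 42.4, 31.1, 23.1 and 48.4 CPM at 48 h (1.86, SE 0.32, edgeR adjusted p = 0.00171), Per3 went from 134 to 188 CPM up to 458 to 874 CPM (1.85, edgeR adjusted p = 0.00185) and Nr1d1 from 12.7 to 16.7 CPM up to 34.8 to 79.5 CPM (1.86, edgeR adjusted p = 0.00188). The groups did not overlap for any of the 3. Arntl, which encodes the activator BMAL1, averaged 81.5 ± 5.15 and 66.3 ± 15.0 CPM and did not pass (edgeR adjusted p = 0.214), and Bhlhe40, a repressor in the same loop, was lower (-0.92, edgeR adjusted p = 0.0349). The Bhlhe40 call was lost when scaled by total counts (0.0512) and without vehicle mouse 2, 3 or 4 or 48 h mouse 2 or 3 (up to 0.107). In all 4 of 22 clock genes were higher and 2 lower, shares near the 16.8% and 13.3% of all genes. These counts were 3 and 0 without vehicle mouse 3, 4 and 0 without vehicle mouse 4, 48 h mouse 2 or 48 h mouse 3, 3 and 1 without vehicle mouse 1 or 2, and 3 and 3 without 48 h mouse 1. They were 5 and 0 when scaled by total counts. The labels give no hour of day at which tissue was taken. Among glucocorticoid targets Mt1, a metallothionein, was higher (24.6 ± 7.25 to 50.3 ± 7.07 CPM) and Zbtb16 lower (22.3 ± 4.12 to 7.59 ± 2.09 CPM), Fkbp5 did not pass (9.25 ± 1.62 and 11.8 ± 3.53 CPM, edgeR adjusted p = 0.363), and 3 of 17 were higher and 4 lower, 5 and 4 when scaled by total counts, and 4 and 4 without vehicle mouse 3.

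The promoters of Nr4a1, Btg2 and Per1 are shown because activity-driven genes are known for the cAMP response element and clock genes for the E-box, and that of Rab5a is shown beside them as a gene of neither kind that fell. Each is the 250 bases before the start site, 5′ to 3′ on the gene's strand, from RefSeq on GRCm38.p6: Nr4a1 at chr15:101266596-101266845 (plus strand), Per1 at chr11:69098699-69098948 (plus strand), Btg2 at chr1:134079156-134079405 (minus strand) and Rab5a at chr17:53478984-53479233 (plus strand). Capitals mark TGACGTCA (cAMP response element) and CACGTG (E-box), both of which read the same on either strand and were searched on both.
Nr4a1: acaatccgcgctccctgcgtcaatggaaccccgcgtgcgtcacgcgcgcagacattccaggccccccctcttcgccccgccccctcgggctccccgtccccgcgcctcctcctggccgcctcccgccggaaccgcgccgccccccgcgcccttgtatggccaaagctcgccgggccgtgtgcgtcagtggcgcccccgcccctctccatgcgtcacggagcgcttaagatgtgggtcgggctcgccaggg
Per1: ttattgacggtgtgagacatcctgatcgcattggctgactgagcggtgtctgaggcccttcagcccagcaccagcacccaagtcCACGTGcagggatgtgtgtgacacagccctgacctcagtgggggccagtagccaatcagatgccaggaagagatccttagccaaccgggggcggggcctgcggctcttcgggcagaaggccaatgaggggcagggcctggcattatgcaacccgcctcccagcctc
Btg2: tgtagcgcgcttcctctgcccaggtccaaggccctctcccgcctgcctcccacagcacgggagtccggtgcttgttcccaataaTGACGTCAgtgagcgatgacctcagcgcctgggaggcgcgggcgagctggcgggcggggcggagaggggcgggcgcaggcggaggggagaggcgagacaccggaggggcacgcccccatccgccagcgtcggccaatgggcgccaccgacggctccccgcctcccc
Rab5a: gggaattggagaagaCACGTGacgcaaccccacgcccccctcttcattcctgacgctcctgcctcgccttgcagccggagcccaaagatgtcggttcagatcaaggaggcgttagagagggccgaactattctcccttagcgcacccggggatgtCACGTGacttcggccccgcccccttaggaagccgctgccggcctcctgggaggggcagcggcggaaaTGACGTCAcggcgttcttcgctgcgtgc
Per1, which was higher, has an E-box starting 166 bases before the start site in 1 of the 2 promoters listed for it, and Btg2, which was lower, has a cAMP response element at the same distance. Rab5a has E-boxes at 235 and 95 bases before its start and 1 cAMP response element, and Nr4a1 has neither motif in these letters. No matches overlap in the sequences shown. TGACGTCA was found in 1.55% of all 32851 promoters of this length. By gene, at least 1 listed promoter held it in 3.02% of 11475 tested genes. The share was 2.73% of genes called higher (1575) and 5.29% of genes called lower (1722). CACGTG was found in 6.02% of all promoters. By gene it was found in 9.61% of tested genes, 8.38% of those called higher and 11.6% of those called lower. A gene with several promoters has more chances of a match, so the shares of genes cannot be set beside the shares of promoters. A match is a match of letters and says nothing of binding.

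Genes of chromatin enzymes were called more often than the background, mostly higher. Of 55 histone methylation enzymes tested 19 were higher and 5 lower, and of 36 histone acetylation genes 13 were higher and 7 lower. Kmt2d, an H3K4 methyltransferase, went from 31.3, 27.1, 31.7 and 21.1 CPM to 147, 129, 99.2 and 138 CPM (2.20, SE 0.40, edgeR adjusted p = 0.00194), and its relatives Kmt2a (0.72), Kmt2b (1.5), Kmt2c (0.68), Setd1a (1.06) and Setd1b (1.27) were all called higher. Kat6b, a histone acetyltransferase, went from 31.7, 24.8, 31.2 and 32.2 CPM to 190.5, 285, 197 and 174 CPM (2.82, SE 0.51, edgeR adjusted p = 0.00188), with Kat6a (1.27), Ep300 (0.89), Crebbp (0.55) and the bromodomain readers Brd2 (0.93) and Brd3 (0.87). Among the lower members were Setd6 (-1.21), a methyltransferase, and Sirt4 (-1.63), a mitochondrial sirtuin that the name pattern takes in. The median of the methylation list was 0.34, and 0.13 with the length trend removed. The methylation list had 2 or 3 lower calls with any mouse but vehicle mouse 4 left out, and 3 when scaled by total counts or RLE factors. Without vehicle mouse 1 the acetylation list had 8 higher and 3 lower calls, and 4 lower without 48 h mouse 1 or 3.

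Zinc finger, RNA helicase and splicing genes leaned the other way. Of 399 C2H2 zinc finger genes tested, the largest family of DNA-binding proteins, 86 were lower and 38 higher (median -0.25). These were 64 and 25 without vehicle mouse 1, 63 and 25 without vehicle mouse 2, and 56 and 29 without vehicle mouse 4. Zfp280b was at 42.9, 37.5, 38.6 and 39.4 CPM against 9.42, 6.03, 5.04 and 9.04 CPM (-2.42, SE 0.49, edgeR adjusted p = 0.00277), and Zfp335 rose from 4.11 ± 0.781 to 40.6 ± 13.6 CPM (3.30, edgeR adjusted p = 0.00153). DEAD and DEAH box helicases, which remodel RNA, had 20 lower and 4 higher calls of 52 (median -0.45), core spliceosome genes 13 lower and 4 higher of 56 (2 higher without 48 h mouse 1), and SR and hnRNP splicing factors 8 lower and 3 higher of 31. Snrpn, a spliceosomal protein gene of an imprinted locus, fell from 447 ± 27.3 to 107 ± 47.1 CPM (-2.06, edgeR adjusted p = 0.00882), and Hnrnpab fell from 56.5 ± 4.65 to 16.1 ± 4.40 CPM (-1.81, edgeR adjusted p = 0.00215). Snhg14, the long noncoding transcript that runs on from Snrpn on the same chromosome, rose from 62.7, 76.2, 138 and 172 CPM to 349, 385, 367 and 304 CPM (1.65, SE 0.41, edgeR adjusted p = 0.00778). Both overlap annotated genes on both strands. Among the abundant nuclear noncoding RNAs 6 of 19 were higher, 3 of them from the imprinted Dlk1-Dio3 region: Meg3, Rian (1.52) and Mirg (1.39). Meg3 was at 4178, 5302, 5859.6 and 5603 CPM against 9997, 14596, 14962 and 9216 CPM (1.22, SE 0.28, edgeR adjusted p = 0.00555), and Rtl1, described above, lies in the same region. Tug1 was the member that fell (-1.01, edgeR adjusted p = 0.00303), and without 48 h mouse 1 the list had 5 higher and 2 lower calls. Malat1 ranged from 24880.0 to 32400.0 CPM and from 27357 to 72313 CPM, with overlap and no call (edgeR adjusted p = 0.13). RNA polymerase II and Mediator genes had 6 higher and 5 lower calls of 46, and Polr2a, the largest polymerase subunit, went from 14.0 ± 2.24 to 35.1 ± 7.37 CPM (1.33, edgeR adjusted p = 0.00176). The polymerase list had 4 higher and 6 lower calls without 48 h mouse 4, where the side turned. It had 3 and 2 without vehicle mouse 1 or 48 h mouse 1, 4 and 3 without vehicle mouse 2, 5 and 2 without 48 h mouse 2, and 6 and 2 without 48 h mouse 3. RNA decay genes had 9 higher and 4 lower of 38 (median -0.14), with Exosc5, an exosome subunit, higher (1.55) and Exosc4 lower (-0.89). The Exosc4 call was lost in 6 of the 8 fits with a mouse left out, all but those without vehicle mouse 3 or 48 h mouse 1 (up to 0.102), and when scaled by total counts (0.0517). The decay list had 7 higher and 7 lower calls with the length trend removed, 6 and 5 without 48 h mouse 1, 6 and 2 without vehicle mouse 1 and 4 and 1 without vehicle mouse 2. It had 8 and 2 without vehicle mouse 4 or 48 h mouse 2, 8 and 1 without 48 h mouse 3, and 11 and 2 without 48 h mouse 4.

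Cytosolic ribosomal protein genes moved almost entirely one way. Of 86 in the files 81 were tested, 46 were called higher and 0 lower, 75 had a positive log2 fold change and the median was 0.82, beside 16.8% of genes called higher and a median of 0.02 over all genes. Their summed level was 1995, 2051, 1794 and 1714 CPM in the vehicle mice and 3494, 2686, 3192 and 3140 CPM in the 48 h mice, without overlap. Both subunits took part: 25 of 49 large subunit genes (median 0.77) and 21 of 32 small subunit genes (median 0.83) were higher. Rplp1, a protein of the ribosomal stalk, was at 19.7, 19.0, 14.3 and 15.5 CPM against 78.7, 42.0, 77.2 and 65.0 CPM (1.94, SE 0.39, edgeR adjusted p = 0.00282). The count was 34 to 41 higher and 0 lower with each mouse left out, and the median stayed at 0.75 with the length trend removed. These genes have many near-identical processed pseudogenes, and reads that align to several copies can be lost or misplaced, so single members are uncertain. They are short messages that cytoplasm holds in large amounts, and the 18S pseudogene and mitochondrial shares moved the same way in the same mice; the fits with these shares as covariates made 0 calls, so their part cannot be told apart from that of the group.

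**Figure D3:**
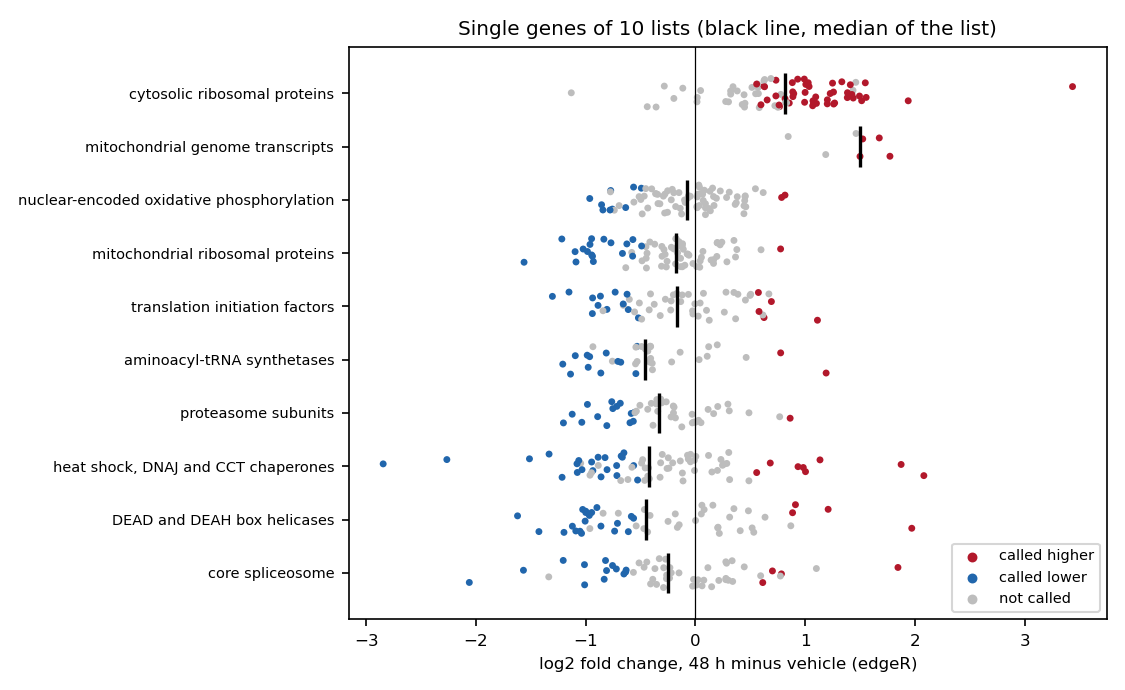
Each point is 1 tested gene of 10 lists on protein synthesis, handling and energy supply, placed by its log2 fold change (48 h minus vehicle, edgeR) and coloured by its call, with the median of each list as a black line. Cytosolic ribosomal proteins lie almost wholly right of 0 with a median of 0.82, while aminoacyl-tRNA synthetases have a median of -0.46 and chaperones of -0.42.

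Other lists of protein synthesis had more lower than higher calls, with most members not called. Mitochondrial ribosomal proteins had 18 lower and 1 higher of 74 (median -0.18), translation initiation factors 12 lower and 5 higher of 53 (median -0.17, but 8 and 8 calls when scaled by total counts) and aminoacyl-tRNA synthetases 12 lower and 2 higher of 37 (median -0.46). Nars, which charges asparagine tRNA, was at 642, 626, 544 and 606 CPM against 233, 230.2, 297 and 287 CPM (-1.21, SE 0.26, edgeR adjusted p = 0.00368). Eif5, the GTPase activator of the initiation complex, went from 347, 387, 448 and 442 CPM to 167, 151, 181 and 159 CPM (-1.3, SE 0.24, edgeR adjusted p = 0.00215). Mrpl33 fell from 80.4 ± 3.62 to 27.2 ± 3.80 CPM (-1.56, edgeR adjusted p = 0.00208). In the signal recognition particle and translocon list, whose products bring secreted proteins into the endoplasmic reticulum, 8 of 24 were lower and 1 higher, Srp72 (1.27, edgeR adjusted p = 0.0041). The lower counts of 3 of these lists depended on single mice: mitochondrial ribosomal proteins had 10 without vehicle mouse 2, vehicle mouse 4 or 48 h mouse 2, and 11 or 12 without vehicle mouse 1, vehicle mouse 3 or 48 h mouse 3. The synthetases had 5 without vehicle mouse 2, 48 h mouse 2 or 48 h mouse 3 and 6 without vehicle mouse 1, and the initiation factors 7 without vehicle mouse 1 (5 higher), vehicle mouse 2, 48 h mouse 2 or 48 h mouse 3, and 9 without vehicle mouse 4. The initiation factors had 2 or 3 higher calls with any mouse but vehicle mouse 1 left out, and 1 higher and 14 lower with the length trend removed.

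The chaperone, proteasome and autophagy lists also had more lower than higher calls. Chaperones had 22 lower and 8 higher calls of 71 (median -0.42), proteasome subunits 14 lower and 1 higher of 46 (median -0.33) and core autophagy genes 7 lower and 1 higher of 31 (median -0.38). The stress-inducible Hspa1b (-2.85) and Hspa1a (-2.27), the endoplasmic reticulum chaperone Hspa5 (-1.21), the constitutive Hspa8 (-0.89) and the chaperonin subunits Cct4 (-0.95), Cct6a (-0.72), Cct8 (-0.67) and Tcp1 (-0.86) were among the lower ones, whereas Hsp90aa1 was higher (0.94). Psmd2, a subunit of the proteasome cap, was at 426, 349.6, 257 and 253 CPM against 146, 114, 111 and 186 CPM (-1.20, SE 0.36, edgeR adjusted p = 0.0203, and up to 0.0668 without vehicle mouse 1 or 48 h mouse 2 or 3). Psme3, an alternative activator, was the proteasome gene that was higher (0.86). Its groups overlapped, and its call was lost in 6 of the 8 fits with a mouse left out, all but those without vehicle mouse 3 or 48 h mouse 3. Of the paralogous autophagy proteases Atg4a fell from 34.5 ± 5.77 to 11.8 ± 6.48 CPM and Atg4b rose from 50.8 ± 4.90 to 106 ± 13.4 CPM. Deubiquitinases and TRIM ligases had 14 higher and 12 lower of 76, with Usp54 higher (1.02) and Usp33 lower (-0.96, a call lost without vehicle mouse 1 or 2 or 48 h mouse 2, 3 or 4, with edgeR adjusted p up to 0.0705). The side turned with the length trend removed (8 higher, 14 lower) and without 48 h mouse 1 (7 and 11). The list had 7 to 9 higher and 6 to 8 lower without vehicle mouse 1, 2 or 3 or 48 h mouse 2 or 3, 10 and 8 without vehicle mouse 4, and 12 and 7 without 48 h mouse 4. The chaperone list had 4 to 6 higher calls with each mouse left out. Leaving out vehicle mouse 1 left 8 lower and 4 higher chaperones, 5 lower proteasome subunits and 4 lower autophagy genes. Without vehicle mouse 2 these were 15 and 4, 8, and 3, and without 48 h mouse 2 they were 11 and 6, 9, and 4. The fit without 48 h mouse 1 had 9 lower proteasome subunits, and that without 48 h mouse 3 had 13 lower and 5 higher chaperones, 9 lower proteasome subunits and 3 lower autophagy genes.

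Energy supply genes were called in both directions. Of the 13 protein genes of the mitochondrial genome 7 were tested and 4 called higher, mt-Nd5 (1.77), mt-Nd1 (1.68), mt-Co1 (1.52) and mt-Nd2 (1.5), all of which are subunits of respiratory complexes. mt-Nd5 was at 13.0, 8.98, 38.8 and 29.2 CPM in vehicle mice and at 50.7, 49.9, 94.0 and 113 CPM at 48 h (SE 0.49, edgeR adjusted p = 0.0136). Vehicle mice 3 and 4 had more of it than vehicle mice 1 and 2, and without vehicle mouse 1, vehicle mouse 2, 48 h mouse 3 or 48 h mouse 4 only 2 genes of the list were called. The nuclear-encoded subunits had 2 higher and 9 lower calls of 80 (median -0.08), a smaller share than the 30.1% of all genes. Cox4i1 was higher at 499.9, 335, 522 and 492 CPM against 329, 300.1, 221 and 200.3 CPM (0.82, SE 0.29, edgeR adjusted p = 0.0402), but its sign turned with the 18S share as covariate (-0.30), and its call was lost in all fits with a mouse left out but those without vehicle mouse 1 or 48 h mouse 2 (up to 0.111) and with the length trend removed (0.0669). Cycs, which encodes cytochrome c, fell from 46.0 ± 5.68 to 23.6 ± 1.34 CPM (-0.96, edgeR adjusted p = 0.00306). With the length trend removed the nuclear list had 0 higher and 20 lower calls, in a fit of vehicle and 48 h mice alone 9 and 16, over protein-coding genes alone 5 and 5, and when scaled by total counts 4 and 6. Its lower count was 5 to 7 with each mouse left out, 5 without vehicle mouse 1, vehicle mouse 2, 48 h mouse 2 or 48 h mouse 3, 6 without vehicle mouse 3 or 48 h mouse 4, and 7 without vehicle mouse 4.

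Membrane trafficking genes had more lower than higher calls, and RhoGAP and RhoGEF genes more higher than lower. RAB and VPS genes had 26 lower and 10 higher calls of 86 (median -0.24), and their summed level was 8161 to 8828 CPM in vehicle mice and 5765 to 6725 CPM at 48 h. Besides Rab5a the lower GTPases included Rab2a (-1.58), Rab10 (-1.48), Rab6a (-1.19), Rab18 (-1.15) and Rab11a (-0.75), and Vps35 (-1.01), Vps26a (-0.92), Vps26b (-0.70) and Vps29 (-0.55) make up the cargo-binding core of the retromer. Vps37c, of the ESCRT-I complex, rose from 7.25 ± 0.929 to 18 ± 5.46 CPM (1.31, edgeR adjusted p = 0.00612). Without 48 h mouse 2 the list had 14 lower and 6 higher calls, and 16 or 17 lower without vehicle mouse 1, vehicle mouse 2 or 48 h mouse 3. The higher count was 5 without vehicle mouse 2 or 48 h mouse 3 and 6 without vehicle mouse 3 or 48 h mouse 1. RhoGAP and RhoGEF genes, which switch small GTPases that act on the actin cytoskeleton, had 13 higher and 3 lower of 49 (median 0.36), and 11 and 1 without 48 h mouse 3. Arhgap44 rose from 34.8, 40.6, 28.7 and 34.1 CPM to 177, 209, 211 and 166 CPM (2.46, SE 0.41, edgeR adjusted p = 0.00162). Arhgef2, a RhoA activator bound to microtubules, fell from 279, 319, 237 and 247 CPM to 46.6, 70.6, 65.2 and 60.6 CPM (-2.16, SE 0.42, edgeR adjusted p = 0.0024).

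Microtubule and lipid genes gave mixed results. Mapt, which encodes tau, rose from 139, 143, 144 and 138 CPM to 342, 418, 307 and 355 CPM (1.34, SE 0.21, edgeR adjusted p = 0.00155). The list of tubulins and microtubule-associated proteins had 7 higher and 2 lower of 24, but 2 and 5 with the length trend removed and 1 to 3 higher with each of the 8 mice left out in turn. The axonal motor Kif1a fell from 567 ± 127 to 272 ± 44.4 CPM (-1.06, edgeR adjusted p = 0.0121) and Kif13b rose from 16.8 ± 4.51 to 83.1 ± 4.11 CPM (2.31, edgeR adjusted p = 0.00235), in a motor list with 7 higher and 2 lower of 45. That list had 4 higher calls without vehicle mouse 1 or 4 or 48 h mouse 2 or 4, with 1 to 3 lower, and 4 and 3 with the length trend removed. Cholesterol synthesis genes had 6 lower and 2 higher of 24, 2 and 3 without vehicle mouse 1, 4 and 1 without 48 h mouse 2, and 6 and 1 without vehicle mouse 2, 3 or 4. Sqle, squalene epoxidase, was at 218, 132, 116 and 127 CPM against 75.6, 65.5, 107 and 78.8 CPM (-0.86, SE 0.23, edgeR adjusted p = 0.0119, but 0.0564 without vehicle mouse 1), and Scap, a sterol sensor, rose from 38.7 ± 0.913 to 79.5 ± 12.1 CPM (1.04, edgeR adjusted p = 0.0024). ABC transporters had 7 higher and 8 lower of 38, 8 and 7 when scaled by total counts, and 6 and 3 without vehicle mouse 2 or 48 h mouse 3. Abca2, a transporter of lysosomal lipid, rose from 22.8 ± 1.52 to 76.2 ± 10.5 CPM, and Abcf2 fell from 186 ± 38.4 to 72.5 ± 21.3 CPM (-1.36, edgeR adjusted p = 0.0105).

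**Figure D4:**
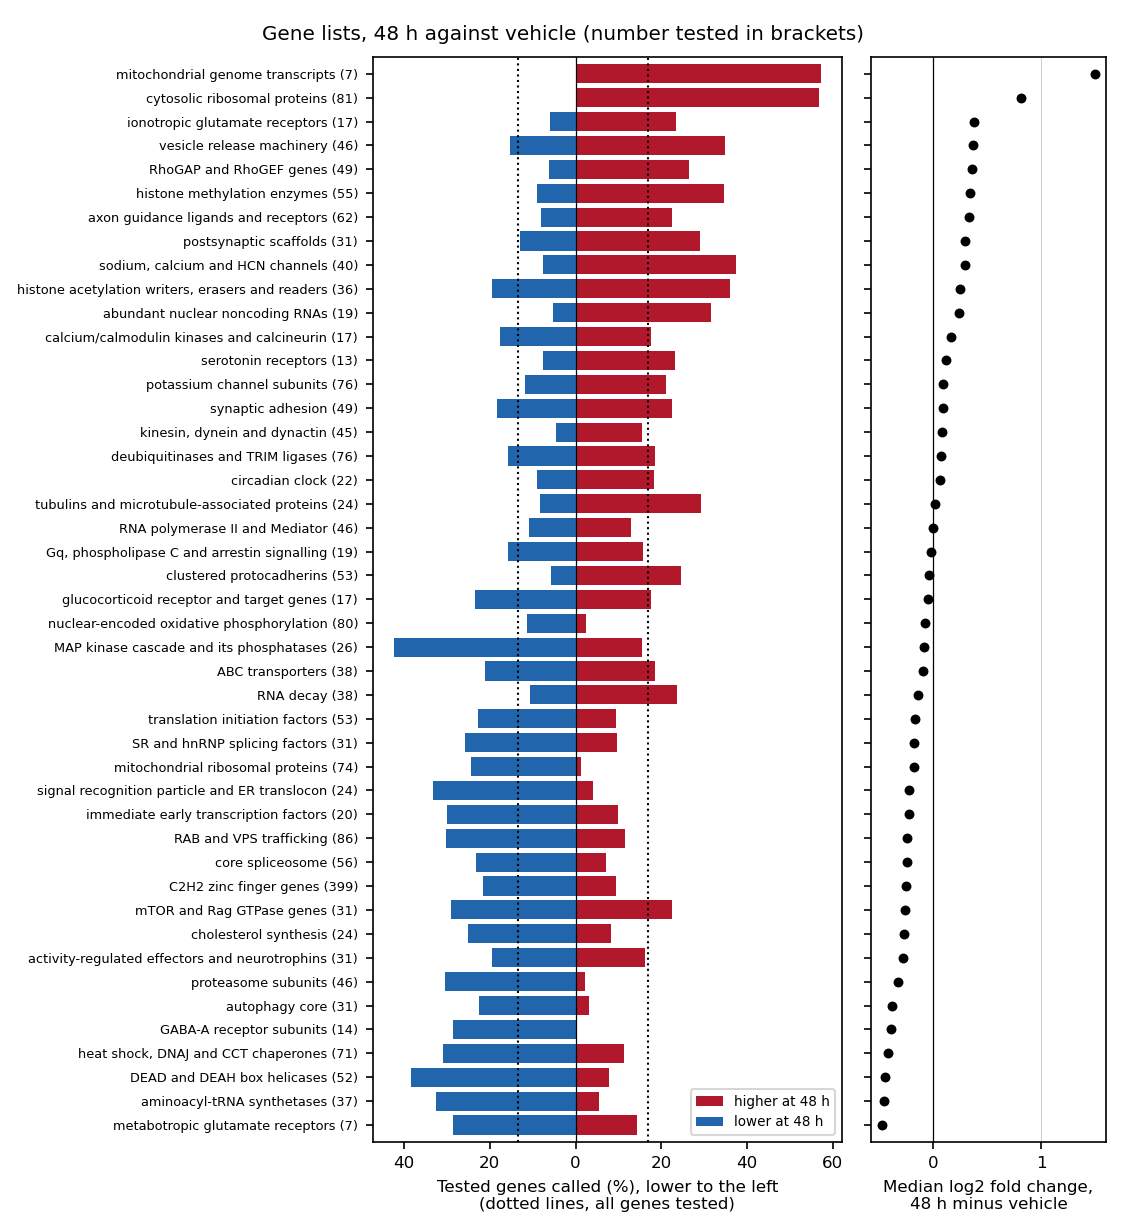
Bars give the share of tested genes of each list, cell type markers aside, called higher (red, to the right) or lower (blue, to the left) at 48 h, with the number tested in brackets and dotted lines at the shares over all genes (16.8% and 13.3%); points give the median log2 fold change. Mitochondrial genome transcripts (1.5) and cytosolic ribosomal proteins (0.82) are at the top and metabotropic glutamate receptors (-0.48) at the bottom.

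The direction of a call went with the structure of the feature. Among 13218 protein-coding genes 1824 were higher and 2115 lower, so 46.3% of their calls were higher. Features that had no RefSeq match were 847 higher and 143 lower (85.6% higher), and long noncoding RNAs 172 and 64. Features of a single exon lying inside a gene of the same strand had 576 higher and 42 lower calls of 1465 (93.2% higher, median log2 fold change 1.29). Those lying only inside a gene of the other strand had 166 and 25 of 446 (86.9% higher, median 1.20), while features not inside another gene had 47.3% of their calls higher. Such nested features can collect reads from the introns of the host gene, and their summed share was 0.955 to 1.36% of the counts of vehicle mice and 1.78 to 2.99% of those of 48 h mice (exact permutation p = 0.0286). Among protein-coding genes the longest quintile by exonic length had 71.3% of its calls higher (677 higher, 273 lower), and the second quintile from the short end 28.4% (217 higher, 547 lower). By genomic span the longest quintile had 72.1% higher and the second 31.3%. With a trend in exonic length removed 5430 genes passed, 2555 higher and 2875 lower, which is 47.1% higher in place of 55.8%. Scaled by total counts 64.2% were higher (3398 of 5295), and the median of all genes moved from 0.02 to 0.12.

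**Figure D5:**
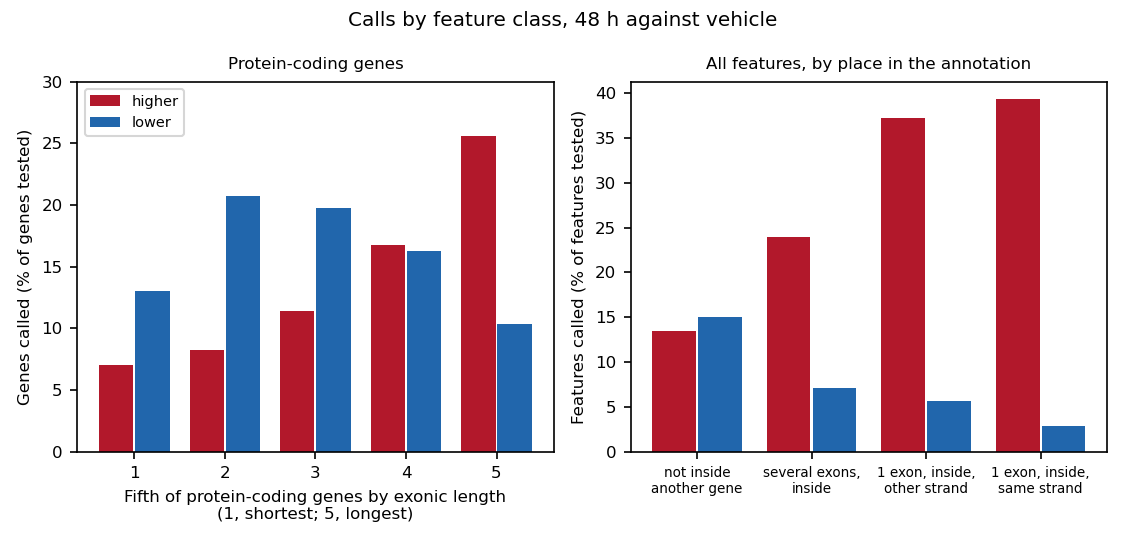
Bars give the share of tested features called higher (red) or lower (blue) at 48 h: on the left protein-coding genes in quintiles by exonic length, on the right features by whether they lie inside another gene. The longest quintile and the single-exon features inside other genes are mostly higher (71.3 and 93.2% of their calls), the second quintile mostly lower.

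In 8 of 10 lists of cell type markers the share of tested genes that was called lay below the 30.1% of all genes. Excitatory markers had 3 higher and 0 lower of 10, Camk2a, Nptx1 (1.47) and Tbr1 (0.86), and their sum was 1255 to 1494 CPM in vehicle mice and 1979 to 3112 CPM at 48 h, of which Camk2a made up 151 to 222 and 1167 to 1876 CPM. The list had 2 higher and 1 lower without vehicle mouse 2, and 3 and 3 in a fit of vehicle and 48 h mice alone. Slc17a7, the vesicular glutamate transporter of cortical pyramidal neurons, was at 171, 133, 133 and 129 CPM against 62.9, 92.2, 93.5 and 82.3 CPM, without overlap but with no call (-0.77, edgeR adjusted p = 0.0594), although it passed as lower in the fit of these 2 groups alone (0.0024). Upper-layer markers had 3 higher of 9, among them Cux2 (10.9 ± 2.02 to 32.5 ± 10.3 CPM, edgeR adjusted p = 0.0052), and deep-layer markers 2 higher and 2 lower of 11, among them Fezf2 (0.66, a call lost without vehicle mouse 2, 3 or 4 or 48 h mouse 1 or 3, with edgeR adjusted p up to 0.126) and Tle4 (-0.89), with 0 higher in 4 of the fits that left out a mouse (vehicle 2, 3 or 4, or 48 h mouse 3) and 1 without vehicle mouse 1 or 48 h mouse 2. Interneuron markers had 1 higher and 1 lower of 14: Slc32a1, the vesicular GABA transporter, was higher (1.46) and Gad1, which makes GABA, lower at 706, 690.3, 529 and 602 CPM against 551, 272, 383 and 456 CPM (-0.60, SE 0.22, edgeR adjusted p = 0.0458). The Gad1 groups overlapped, and the adjusted p lay above 0.05 in 6 of the 8 fits with a mouse left out, all but those without vehicle mouse 3 or 48 h mouse 1, and reached 0.144. It was 0.0795 when scaled by total counts. Summed interneuron markers overlapped between the groups (2396 to 4391 and 3098 to 4776 CPM), and the list had 4 lower calls without 48 h mouse 1, 4 higher without vehicle mouse 1 and 0 lower in 6 of the 8 fits.

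Markers of cells that the sort should remove were present at low to moderate levels, and their sums did not part the groups. Summed astrocyte markers were at 830 to 908 CPM in vehicle mice and 764 to 1210 CPM at 48 h (0 of 9 called), oligodendrocyte markers at 195 to 433 and 222 to 293 CPM (1 of 10, Cnp, -1.02), and microglia markers at 154 to 185 and 104 to 161 CPM (0 of 9). The Cnp call was lost when scaled by total counts and in 6 of the 8 fits with a mouse left out, all but those without vehicle mouse 1 or 48 h mouse 4. The median log2 fold change of the oligodendrocyte markers was -0.64, with 8 of 10 negative, and that of the microglia markers -0.61, with 8 of 9 negative. Vascular markers summed to 14.2 to 20.7 and 17.9 to 46.5 CPM (1 of 6 tested, Vtn, 1.79), with a median of 1.01 and 5 of 6 positive. The Vtn call was lost without vehicle mouse 1, 3 or 4 or 48 h mouse 1 or 3. The defining endothelial marker Cldn5 was at 0 in 6 of the 8 mice. Oligodendrocyte precursor markers, at 16.2 to 41.8 and 27.3 to 36.4 CPM in sum, had Cspg4 higher (0.539 ± 0.237 to 2.64 ± 0.694 CPM, edgeR adjusted p = 0.0173, but 0.0556 without vehicle mouse 2) and Olig1 lower (-1.26). The precursor list had 0 calls without vehicle mouse 2 and 0 lower without 48 h mouse 3. Striatal projection neuron markers, which tissue from beyond the cortex would bring in, had 1 of 10 called, Rgs9 (1.77), and Rgs9 lost its call in all 8 fits with a mouse left out but that without 48 h mouse 1 (up to 0.149). Rgs9 was at 4.78 to 8.25 CPM against 9.85, 40.7, 14.5 and 25.1 CPM, and Drd1, a defining marker, at 40.5 ± 5.05 and 36.4 ± 6.49 CPM (edgeR adjusted p = 0.695). The part of these marker differences in the other results was not tested.

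The 48 h mice could not be set apart from the 24 h mice gene by gene. In the same fit 0 genes passed between 48 h and 24 h after DOI (338 at an unadjusted p under 0.05, smallest edgeR adjusted p = 1), with 4 mice a side, so the values are given side by side. The 24 h means were 218 CPM for Dagla, 1405 CPM for Camk2a, 982 CPM for Grin2b, 418 CPM for Rgs4, 17.8 CPM for Rab5a and 7.86 CPM for Rragb, each near its 48 h value. Among genes with a wider gap, mt-Nd5 averaged 38.5 CPM at 24 h and 77.0 CPM at 48 h (48 h minus 24 h, 1.00), and Drd1 21.7 and 36.4 CPM. Both groups are compared with the same 4 vehicle mice, so the likeness of their differences from vehicle is not independent evidence. The libraries of 24 h mice had similar shares of the 18S pseudogene feature (0.328 to 1.57%) and total counts (6441396 to 8090559) to those of the 48 h mice, but their mitochondrial share was lower, at 0.0621 to 0.101% against 0.108 to 0.268%, without overlap.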

How the data were processed

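Gene-level counts of 32 RNA libraries were used. Per the file headers, the deposited counts are whole reads per gene that the authors obtained with featureCounts v2.0.0 from exons annotated on GRCm38, and the recorded command sets neither strandedness nor pairing nor a treatment of reads with several alignments. The submitters' processing notes name Trim Galore 0.6.5, Bowtie2 2.4.1 and mm10, and the aligner used for RNA is not given in the sources used here. The header of 48 h mouse 2 carries mouse number 6, and the label's number was used.

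The 2 libraries of a mouse were summed, genes kept with filterByExpr, and 1 quasi-likelihood model over 4 groups of 4 mice was fitted with edgeR 4.0.16 (R 4.3.3) and TMM factors, with Benjamini-Hochberg adjustment at 0.05. That the first number of a sample title is a mouse follows the titles; where it is not a separate animal, p-values measure only the spread between these samples. Standard errors were derived from fold changes and F statistics. 55141 of 55401 gene IDs (99.5%) had a symbol, and 3 counts equal 0.260 to 0.514 CPM, for counting error only. The 2 libraries of a mouse differed beyond sampling noise (chi-square per degree of freedom 1.46 to 2.89). Code was tested on simulated data. Gene lists and members were chosen with earlier results of these data known. Named are the first 2 genes of each listed set, each set's largest called change in each direction (mean log2 CPM at least 3, no overlap), the 6 protein-coding genes with the smallest p and the 6 with the largest fold each way (mean log2 CPM at least 5, no overlap), Rbfox3 and Htr2a. Some genes that meet this rule are not reported here. Alternatives were DESeq2 1.42.0, limma 3.58.1 voom, other scalings, filters and thresholds, thinned counts, each library alone, covariates, a replicate block and each mouse left out. The chromatin samples were not analysed here.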

Additional observations from a re-analysis of the deposited data

Results flagged for a closer look

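In 11 of 136 groups of 4 mice 1 mouse lay far from the other 3 (its gap to the nearest mouse as a share of the group's range was above Dixon's critical value), where chance gives about 6.8. Among the 48 h mice, mouse 1 had 21266 genes detected (nearest 24894) and a summed ABC transporter level of 2550.3 CPM (nearest 2052 CPM). Mouse 2 was low in GABA-A receptor subunits (1982.1 CPM, nearest 2763 CPM), chaperones (5320.9 CPM, nearest 7344 CPM) and tubulins and microtubule-associated proteins (3793.3 CPM, nearest 4841 CPM). Mouse 4 was high in aminoacyl-tRNA synthetases (4262.3 CPM, nearest 3616 CPM). Among the vehicle mice, mouse 1 was high in vesicle release genes (15929 CPM, nearest 14199 CPM), the signal recognition particle and translocon list (3444.9 CPM, nearest 2855 CPM), tubulins and microtubule-associated proteins (5929.8 CPM, nearest 4475 CPM) and cholesterol synthesis (2396.6 CPM, nearest 1634 CPM). Mouse 2 was high in vascular markers (20.7 CPM, nearest 14.7 CPM).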

How the results depend on the processing

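The count of 5395 genes was 4588 to 7784 with other tools, scalings, filters, single libraries, thinned counts or only the 2 groups, except over protein-coding genes alone (3980). It was 0 with the 18S or the mitochondrial share as covariate, 2088 at a threshold of 0.01 and 3329 with a 2-fold minimum, where 66.7% were higher. It was 3514 to 4899 with each mouse left out, lowest without vehicle mouse 1, and 56.3 to 60.7% of those calls were higher. Between 48 h and 24 h 2 genes passed with the mitochondrial covariate and 1 without a filter, and 0 in every other fit. The log2 fold change of Cox4i1 was -0.30 with the 18S share (edgeR adjusted p = 0.661), the 1 sign that turned among the named genes; the cause was not tested. Same-numbered mice did not deviate together (correlations 0.08, -0.03, 0.08 and -0.14), and a replicate block gave 4664 genes (2641 higher, 2023 lower). Of 55 lists the side with more calls turned in 3 when scaled by total counts, in 3 with the length trend removed and in 0 with RLE factors. Depth limits genes near 3 counts.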
